A study of Homo sapiens with 2 samples.

Results

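The GADD45 genes and the CDK inhibitors were measured in SKOV3, a human ovarian adenocarcinoma cell line, after knockdown of the transcription factor RUNX2. The clone cl-sh3 was made with a lentiviral pLKO.1-puro vector that expressed a short hairpin RNA against RUNX2, and the mock-transfected control clone carried a scramble sequence in the same vector. Both clones were selected with puromycin, and each arm is 1 clone, so a difference between them cannot be told apart from a difference between single clones. Total RNA of both was labelled with Cy3 or Cy5 and put on the same Agilent whole human genome arrays, with cl-sh3 in Cy5 in hybridization 1 and in Cy3 in hybridization 2. The 2 hybridizations used the same pair of RNAs and count as 1 replicate. No p-value can therefore be given, and the difference between them shows technical error only. The question was how the brakes of the cell cycle differed between the clones. The members are GADD45A, GADD45B, GADD45G, CDKN1A, CDKN1B, CDKN1C, CDKN2A, CDKN2B, CDKN2C and CDKN2D. These 10 of the 17240 genes named on the array were found through the RefSeq accessions of the probes, which gave 15 of the 41000 probes on the array and 42 of its 43376 spots that are not controls.

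Cyclin-dependent kinases (CDKs) drive the cell cycle when bound to cyclins, and several small protein families hold them back. GADD45 proteins are made after DNA damage and other stress. They bind PCNA and the CDK1 and cyclin B1 complex, activate the kinase MAP3K4 upstream of p38 and JNK, and are known for G2/M arrest and for a part in DNA repair. The CIP/KIP inhibitors CDKN1A, CDKN1B and CDKN1C bind many cyclin and CDK complexes, above all those of CDK2. The INK4 inhibitors CDKN2A, CDKN2B, CDKN2C and CDKN2D bind CDK4 and CDK6, keep them from D-type cyclins and so keep RB1 active. In ovarian carcinoma the INK4 locus and CDKN1B are both well known for altered expression.

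Only GADD45A fell short of the control by 2-fold or more in both hybridizations, with a mean 3.00-fold below it, and no member exceeded the control by 2-fold. GADD45B, CDKN1B and CDKN1C were lower in both hybridizations by smaller amounts, between 1.35-fold and 1.62-fold by their brightest probes. CDKN1A and CDKN2D lay closer to 0 but below it in both. GADD45G, CDKN2A, CDKN2B and CDKN2C showed either almost no difference or one that changed sign with the dyes.

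Each ratio below is the log2 of cl-sh3 over control after background correction and loess normalization, so that -1 stands for 2-fold lower. A probe was kept when at least 1 of the RNAs was flagged well above background by the scanner software in both hybridizations, as were 36060 probes in all. Of the 15 member probes 14 were kept, and every member gene had at least 1. Over all kept probes the median ratio was 0.01, the middle 95% of the means lay between -0.71 and 0.57, and the hybridizations differed by a median of 0.22. The targeted gene was measured by 3 kept probes. Its brightest, of NM_004348, gave -2.04 and -1.30 in hybridizations 1 and 2, a 3.18-fold lower mean. The other NM_004348 probe gave 0.17 and -0.13, and the probe of NM_001015051 gave -0.29 and -0.17, so 1 of 3 probes met the 2-fold rule. These other probes were dimmer, with mean log2 intensities of 8.36 and 7.58 in this order, against 10.37 for the brightest. The study also reported lower RUNX2 mRNA and protein in cl-sh3 by RT-PCR and Western blot. With the scanner software's log ratio the mean of the NM_001015051 probe was -0.56 instead of -0.23, so its size depends on the processing. All 12 markers of ovarian epithelial carcinoma had a kept probe, with signals from 198 to 108807. The 8 blood and endothelial genes examined also all had one, at signals from 160 to 2220, so passing the filter does not show that a transcript was present. The epithelial markers were higher in cl-sh3 in both hybridizations for 9 of 12 genes and lower for 1, with a median ratio of 0.40. Over all named genes 30.9% were higher and 28.4% lower in both. Another probe of the lower gene gave 0.26 and 0.18, so its direction depends on the probe. Only in hybridization 1 did cl-sh3 carry the brighter dye Cy5. The summed signal of these 12 markers before normalization was 388497 and 255531 in cl-sh3 in hybridizations 1 and 2, against 186605 and 246153 in the control. The same sum for the blood and endothelial genes was 9158.75 and 4481.75 in cl-sh3, against 4090.25 and 5803.5 in the control, so in both lists the gap between the clones differed with the dyes. Their part in the results was not tested.

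**Figure D1:**
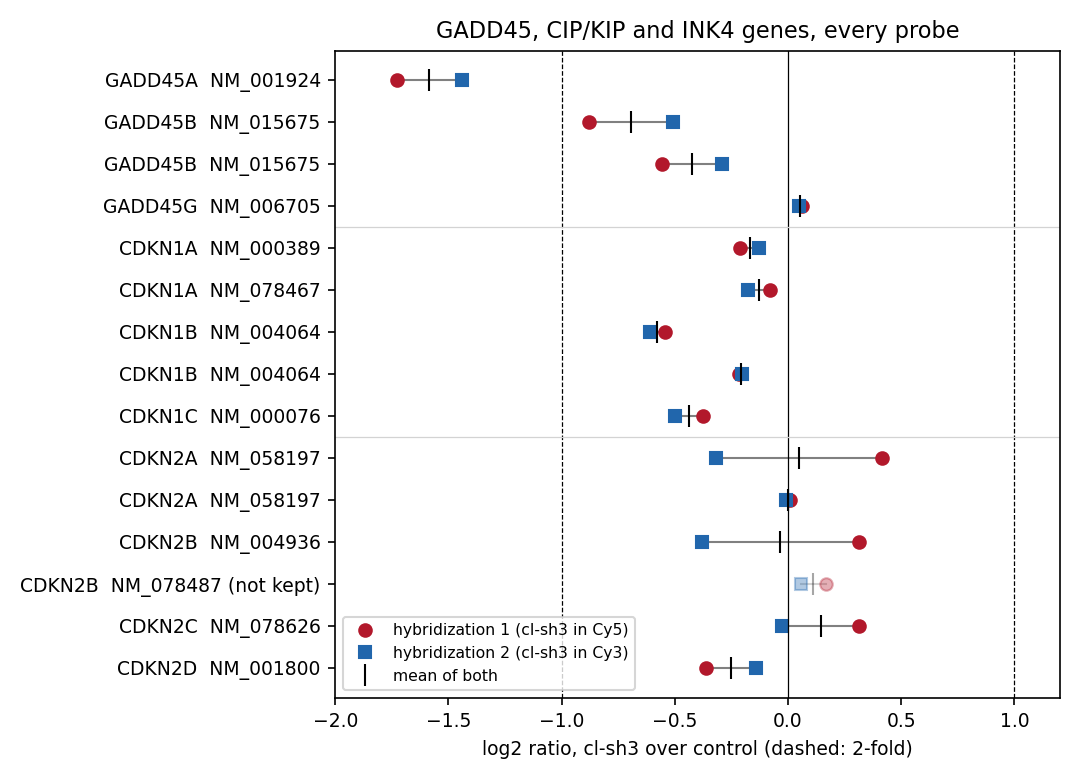
Log2 ratio of cl-sh3 over control for each of the 15 member probes, with a circle for hybridization 1, a square for hybridization 2 and a bar for their mean. GADD45A is the one probe left of the dashed 2-fold line in both, and the probe in pale symbols was not kept.

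GADD45A, the family member best known for its induction by stress-activated transcription factors, had 1 probe, of NM_001924. Its signal, before normalization, was 14091 in cl-sh3 against 24698.1 in the control in hybridization 1. In hybridization 2 it was 9270 against 26156.6. The control was thus the brighter RNA in either dye, although Cy5 was the brighter dye over the whole array. The spots of hybridization 1 had median signals of 902.5 in Cy5 and 451 in Cy3, and those of hybridization 2 had 684 and 507.5. After normalization the ratio was -1.73 in hybridization 1 and -1.44 in hybridization 2, with a mean of -1.59 and a distance of 0.14 from it to either value. Both values lay beyond the 2-fold line, and the mean was at rank 40 from the lowest of the 36060 kept probes, with 0.108% of them lower. Of all kept probes, 0.394% met the 2-fold rule downwards in both hybridizations and 0.122% upwards, that is, 142 and 44 probes, or 124 and 77 with median centring in place of loess. GADD45A was among the genes that the study selected on these same arrays by this rule, so its call is not independent of that choice. With 1 spot and 1 probe, no second sequence of GADD45A was available to set beside it.

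GADD45B, a relative induced by NF-kappaB and TGF-beta signalling, was read by 2 probes of NM_015675. The brighter had a signal of 23910.5 in cl-sh3 against 22727.1 in the control in hybridization 1, and of 17916 against 26639.3 in hybridization 2. Its normalized ratios were -0.88 and -0.51, a mean of 1.62-fold lower. The dimmer probe, at 3191 against 2559 and at 1820 against 2456, gave -0.56 and -0.29. All 4 values were negative and none reached the 2-fold line. The difference between hybridizations, 0.37 and 0.27 for the probes in this order, was larger than the median over all kept probes. Of the kept probes, 2.65% were lower than the brighter one, so a ratio of this size was not rare on the arrays.

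GADD45G, the member that is often silenced in tumours, was dim. Its signal was 622 in cl-sh3 against 284 in the control in hybridization 1, and 322 against 439 in hybridization 2, where the dyes were reversed. The brighter signal followed the Cy5 dye, and after normalization the ratios were 0.06 and 0.05. It was the only member whose kept probe was higher in both hybridizations. The GADD45 genes thus ranked GADD45A, GADD45B and GADD45G from the lowest ratio upwards in both hybridizations. This order, taken by brightest probes, rests on 2 dye orientations of 1 pair of RNAs, which differed by a median of 0.22 over all kept probes.

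**Figure D2:**
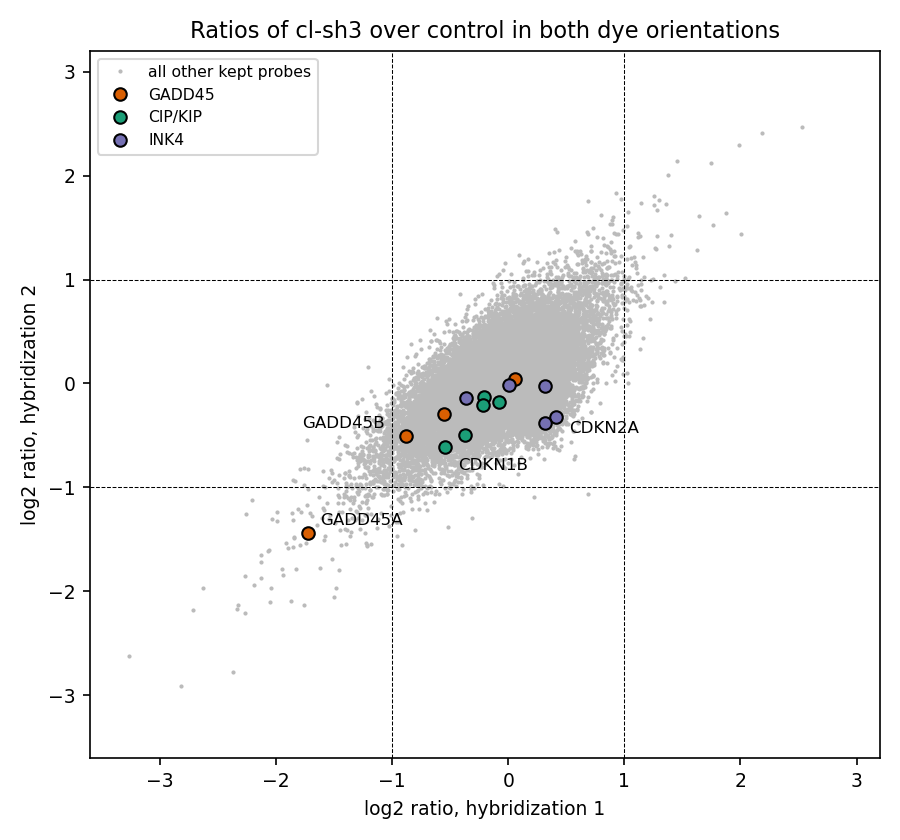
Log2 ratio of cl-sh3 over control in hybridization 1 (horizontal) against hybridization 2 (vertical) for the kept probes, with the 14 kept member probes coloured by family and dashed lines at 2-fold. GADD45A stands alone among the members in the lower left corner, while a CDKN2A probe lies in the lower right of the zero point, where the sign changed with the dyes.

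Among the CIP/KIP inhibitors all 5 kept probes, of 3 genes, were lower in cl-sh3 in both hybridizations, against 27.3% of all kept probes. None met the 2-fold rule, against 0.394%. CDKN1B encodes p27, which holds cells in quiescence and is controlled largely through its breakdown. Its brighter probe, of NM_004064, was printed at 10 places on the array and had a median spot signal of 2482 in cl-sh3 against 1986 in the control in hybridization 1. In hybridization 2 the medians were 1379 and 2446. Over the 9 spots used in hybridization 1 the ratios ran from -0.73 to -0.42, with a mean of -0.54 ± 0.10 (SD over spots). Over the 10 spots of hybridization 2 they ran from -0.87 to -0.42, with a mean of -0.61 ± 0.14. Every spot was below 0, and the means of the hybridizations differed by 0.07, less than the SD over spots in either. The mean of both was 1.49-fold lower, with 4.32% of kept probes lower. A second, dimmer CDKN1B probe of the same accession gave -0.21 and -0.20, nearer to 0 than any spot of the first. It read 514.5 in cl-sh3 against 255 in the control in hybridization 1, and 241 against 492 in hybridization 2. These signals lay within the range of the blood and endothelial genes. The probes of CDKN1B thus had the same sign but not the same size, and the size of its difference depends on the probe.

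CDKN1A encodes p21, the inhibitor best known for arresting cells after DNA damage. Its probe of NM_000389 was also printed 10 times, with median spot signals of 1244 in cl-sh3 and 712 in the control in hybridization 1. In hybridization 2 the medians were 725.5 and 999. The ratios of the 9 spots used in hybridization 1 ran from -0.35 to -0.12, with a mean of -0.21 ± 0.08 (SD over spots). Those of the 10 spots of hybridization 2 ran from -0.17 to -0.02, with a mean of -0.13 ± 0.04. All spots lay below 0, but the mean of both, -0.17, was only 1.12-fold lower, at rank 7581 from the lowest of the kept probes. The highest signals of the blood and endothelial genes were 2220 in cl-sh3 and 935 in the control in hybridization 1, and 1072 and 1308 in hybridization 2. The median signals of this CDKN1A probe were below these in every case, so they do not by themselves show that the transcript was present. The probe of NM_078467 was dim, at 401 against 180 and at 189 against 380, and gave -0.08 and -0.18. No spot of the CDKN1A probe of NM_000389 overlapped the spots of the brighter CDKN1B probe in the same hybridization, but the dimmer CDKN1B probe, at -0.21 in hybridization 1, lay within its range.

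CDKN1C encodes p57, an imprinted inhibitor expressed from the maternal allele. Its probe of NM_000076 had a signal of 5548 in cl-sh3 against 4027 in the control in hybridization 1, and of 3569 against 5396 in hybridization 2. The ratios were -0.38 and -0.50, a mean of 1.35-fold lower. They differed by 0.12. The mean was larger in size than the distance of 0.06 from it to either value, as it was for 57.1% of all kept probes. By brightest probes, CDKN1A lay above CDKN1B and CDKN1C in both hybridizations. The means of CDKN1B and CDKN1C, -0.58 and -0.44, differed by little more than the hybridizations of CDKN1C did.

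**Figure D3:**
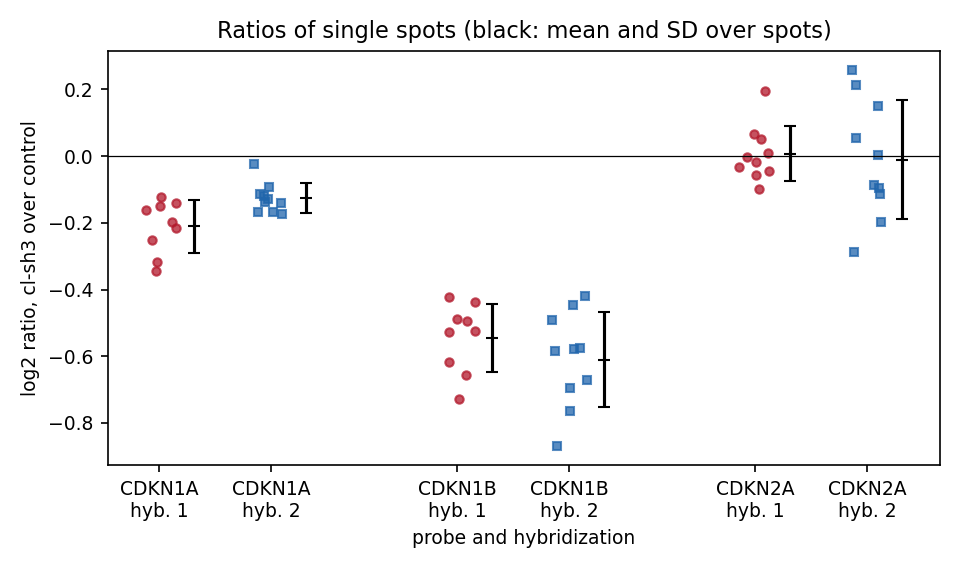
Log2 ratio of single spots for the 3 member probes printed 10 times per array, by hybridization, with the mean and SD over the spots in black. All CDKN1B and CDKN1A spots lie below 0, and the CDKN2A spots lie on both sides of it.

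The promoters of GADD45B and CDKN1B, each the member of its family with the lowest ratio among those whose promoter sequence was at hand, are shown because both genes were lower in cl-sh3 by each of their probes. They are the 250 bases before the annotated start, read 5′ to 3′ from RefSeq on GRCh38.p14. GADD45B lies at chr19:2475877-2476126 and CDKN1B at chr12:12717118-12717367, both on the + strand, and capitals mark CCAAT and TATAAA in the printed strand.
GADD45B: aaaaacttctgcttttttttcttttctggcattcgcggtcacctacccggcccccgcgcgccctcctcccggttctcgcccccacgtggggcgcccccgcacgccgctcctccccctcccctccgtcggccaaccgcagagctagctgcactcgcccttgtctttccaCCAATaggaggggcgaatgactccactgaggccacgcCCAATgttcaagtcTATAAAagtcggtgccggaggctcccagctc
CDKN1B: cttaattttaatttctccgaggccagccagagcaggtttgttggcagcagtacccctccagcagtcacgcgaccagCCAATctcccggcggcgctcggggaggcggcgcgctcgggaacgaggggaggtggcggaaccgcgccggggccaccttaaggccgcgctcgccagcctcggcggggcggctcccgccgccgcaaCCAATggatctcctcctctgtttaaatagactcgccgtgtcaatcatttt
Of the 10 members, 8 matched the promoter table, with 11 windows of 250 bases before to 50 after a start. GADD45A and CDKN1C had no window, so their promoters were not searched. The RUNX core letters TGTGGT, searched on both strands, were in 0 of the 11 windows and in 13.1% of all 35116 windows of this length. The letters TGATGCAA, a composite element for ATF4 and C/EBP factors, were in 0 of 11 and in 0.866% of all. In GADD45B, CCAAT began 82 and 45 bases before the start and TATAAA 31 bases before it. In CDKN1B, CCAAT began 174 and 50 bases before the start. CCAAT on either strand was in 5 of the 11 windows and in 34.6% of all, TATAAA in 1 and in 11.5%, and the GC box GGGCGG in 7 and in 45.0%. None of these letter strings contains another, and the CCAAT, TATA and GC boxes were chosen after the promoters had been read. The absence of letters from these windows says nothing of the factors elsewhere.

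The INK4 inhibitors behaved less evenly. CDKN2A gives rise to p16 and, from another reading frame, to ARF, and which of its transcripts a probe reads is not given by the accession alone. The brighter CDKN2A probe, of NM_058197, had a signal of 2552 in cl-sh3 against 1019 in the control in hybridization 1, and of 1180 against 1747 in hybridization 2. It gave 0.41 and -0.32, that is, it was brighter in Cy5 in both, and its mean of 0.05 was smaller than the 0.37 that separated it from either value. The second probe of this accession was printed 10 times and was dim, with the control well above background in 5 of 10 spots in hybridization 2. Its spots ran from -0.10 to 0.19 in hybridization 1 and from -0.29 to 0.26 in hybridization 2, with means of 0.01 ± 0.08 and -0.01 ± 0.18 (SD over spots). No difference between the clones was detectable for CDKN2A at the error of these arrays.

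CDKN2B, the neighbour of CDKN2A that TGF-beta induces, was near the background. Its kept probe, of NM_004936, read 337 in cl-sh3 and 116 in the control in hybridization 1, over local backgrounds of 146 and 43. In hybridization 2 it read 115 and 334, over 52 and 205, and the control was not well above background. The ratios, 0.31 and -0.38, followed the dye as those of CDKN2A did. The probe of NM_078487 was not kept. It read 302 and 102 in hybridization 1 and 113 and 291.5 in hybridization 2, and gave 0.17 and 0.06. The brighter CDKN2A probe and the kept CDKN2B probe were the 2 member probes whose hybridizations differed by more than they did for 95% of kept probes.

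CDKN2C, which encodes p18, and CDKN2D, which encodes p19, were bright in both clones. The CDKN2C probe of NM_078626 read 21767.6 in cl-sh3 against 9552 in the control in hybridization 1 and 12764 against 13543.5 in hybridization 2. Its ratios were 0.31 and -0.02, so the hybridizations did not give the same sign. The CDKN2D probe of NM_001800 read 13445 against 9580 in hybridization 1 and 10036.5 against 11531 in hybridization 2. Its ratios were -0.36 and -0.14, a mean of 1.19-fold lower. CDKN2D was the one INK4 gene that was lower in both hybridizations, and 15.3% of kept probes were lower.

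Counted over probes, 9 of the 14 kept member probes were lower in cl-sh3 in both hybridizations, against 27.3% of all kept probes, and 1 was higher in both, against 29.8%. By the brightest kept probe of each gene, 6 of the 10 members were lower in both and 1 was higher. Over all 16153 genes with a named and kept probe these shares were 28.4% and 30.9%. At least 2-fold lower in both was 1 of 10 members, against 0.514% of all such genes, and 0 of 10 were at least 2-fold higher, against 0.136%. The median of the members was -0.21, with -0.69 for the GADD45 genes, -0.44 for CIP/KIP and 0.01 for INK4, against 0.01 over all named genes. These families hold 3, 3 and 4 genes, and probes of a gene share its RNA, so the counts are a description of this pair of RNAs. RNA of whole cultures was measured, in which fewer cells with a transcript and less RNA per cell cannot be told apart.

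The genes around the members were taken from 7 lists, on which 95 of 99 different genes had a kept probe. By brightest probes 40 of these were lower in cl-sh3 in both hybridizations and 24 higher, 5 were at least 2-fold lower and 0 at least 2-fold higher, and their median was -0.02. Over all named genes, 28.4% were lower and 30.9% higher in both hybridizations, 0.514% at least 2-fold lower and 0.136% at least 2-fold higher. The counts of each list below stand beside these same shares. The lists were drawn up with earlier results of these arrays known, so these counts are a description only. The partners of GADD45 held 1 gene past the 2-fold line among the 13 measured. It was MAPK9, the JNK2 kinase at the end of the cascade that MAP3K4 opens, at -1.90 and -1.58. The median of this list was 0.04, with 4 genes lower and 3 higher in both hybridizations.

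Of 26 measured transcription regulators of the members 17 were lower in both hybridizations, 2 were higher, and 3 were at least 2-fold lower. Over all named genes these shares were 28.4%, 30.9% and 0.514%. The list was drawn up with earlier results of these arrays known, so its counts cannot show an excess over these shares. ATF4, DDIT3 and CEBPB were among the genes that the study named as lower on these same arrays. Their calls are therefore not independent of that choice. When the probes of a gene were averaged, ATF4 and CEBPB no longer met the rule, and DDIT3, with 1 probe, could not change. ATF4, the main factor of the integrated stress response, gave -1.54 and -1.30 by its brightest probe and -0.93 and -0.62 by another. DDIT3, also named GADD153, a factor downstream of ATF4, gave -2.19 and -1.94. CEBPB, a C/EBP factor, gave -1.44 and -1.24 by its brightest probe and -0.05 and -0.07 by another, so its difference rests on 1 of its probes. The median of the list was -0.25. ATF4, DDIT3 and GADD45A were thus all lower in cl-sh3 in either dye, which is a description of 1 pair of RNAs.

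The other genes first named for growth arrest and DNA damage, or with names close to those of the members, numbered 9, all measured, of which 4 were lower and 3 higher in both hybridizations, with a median of -0.17. Of these DDIT3 and DDIT4 were at least 2-fold lower, against 0.514% of all named genes. As stated above, the call of DDIT3 is not independent of the study's choice. The study applied the same 2-fold rule to these same arrays, so the calls of DDIT4 and MAPK9 are not independent evidence either. DDIT4, an inhibitor of mTORC1, gave -1.41 and -1.40.

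The list of cell cycle kinases and cyclins, which also holds CDK7 and CCNH of the CDK-activating kinase, showed no gene past the 2-fold line among 14 measured, with 5 lower and 5 higher in both hybridizations and a median of 0.07. CDK7 and CCNH, named after their values were seen, were 2 of the 5 lower genes and had the lowest means of the list, -0.93 and -0.68. CDK4 gave -0.20 and 0.28, of opposite signs. CDK6 gave -0.45 and -0.12 by its brightest probe and 0.01 and -0.03 by another. CCND1, cyclin D1, had 3 probes, which gave -0.63 and -0.19, 0.90 and 0.08, and 0.08 and 0.16, so its direction depends on the probe. Of the 12 measured genes of the RB and E2F list none was past 2-fold, 6 were lower and 4 higher in both, and the median was -0.19. RB1, the pocket protein that INK4 inhibitors keep active, gave -0.63 and -0.18 by its brightest probe and -0.02 and -0.38 by another.

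Of the 14 genes that turn over CIP/KIP proteins, all measured, 4 were lower and 7 higher in both hybridizations, none by 2-fold, with a median of 0.13. SKP2, the ubiquitin ligase subunit that marks p27 for breakdown, gave -0.04 and 0.16. The 8 neighbours of CDKN2A and CDKN2B on chromosome 9p21 had a median of -0.04, with 1 lower and 0 higher in both hybridizations. Among them MTAP, an enzyme of methionine salvage, gave -0.16 and 0.05 by its brightest probe, and -0.38 and -0.01 and -0.57 and -0.00 by the others.

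**Figure D4:**
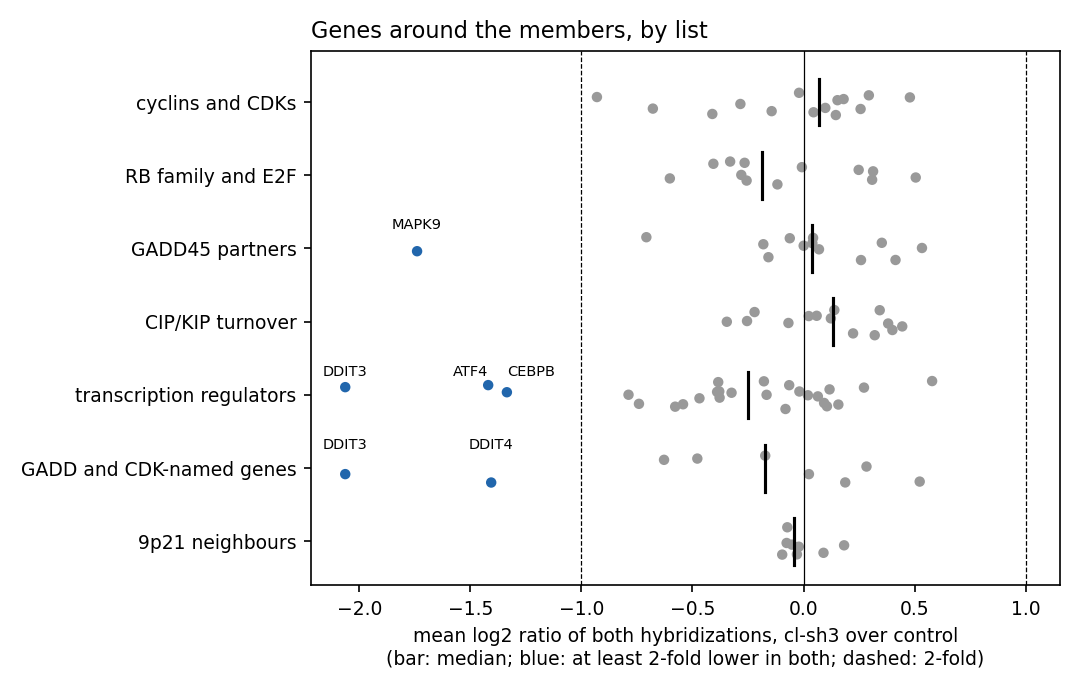
Mean log2 ratio of cl-sh3 over control for each measured gene of the 7 lists around the members, by its brightest kept probe, with a bar at the median of each list and dashed lines at 2-fold. The named points are the genes that met the 2-fold rule downwards, and no gene lies beyond the line on the right in both.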

How the data were processed

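The RNAs of cl-sh3 and its control were compared in 2 hybridizations with reversed dyes, per the labels. The authors deposited the intensity of each spot from Agilent Feature Extraction (10.5.1.1 in the file headers, 8.5.1.1 in the submitters' processing notes), not normalized, with local backgrounds, flags and a log10 ratio (Cy5 over Cy3) from the software. A table of log10 ratios was deposited as well. Here, limma 3.58.1 (R 4.3.3) corrected the median pixel signals by its normexp method with an offset of 50. Control spots were then dropped, spots with outlier flags were left out (153 and 144 per hybridization, of which 2 and 0 were members'), and loess was run within each array. Replicate spots were averaged, and the sign of hybridization 2 was turned so that every log2 ratio is of cl-sh3 over control. Ratios of dim probes are shrunk by the offset. A probe was kept when 1 RNA had at least 50% of its spots well above background in both hybridizations.

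The files pair probes with accessions, not symbols. A RefSeq table of GRCh38.p14 named 18023 of the 19228 RefSeq accessions, and NM_004348 was named RUNX2 from the study's own gene list. The arrays were annotated on hg18, so no probe coordinates are given. The members and lists were chosen with earlier results of these data known. The named genes were all members with every probe, RUNX2, list genes at least 2-fold different in both hybridizations, and MTAP, CDK4, CDK6, CCND1, RB1 and SKP2. Some other genes of this rule and 1 list of genes are not reported here. List genes stood by their brightest kept probe. There were 0 columns of other samples. The alternatives were other background corrections and normalizations, flagged spots kept, other detection filters, the software's and the deposited ratios, each hybridization alone and the fold rule on the mean. The procedure was tested on simulated data, with planted changes beyond the 2-fold rule in spots that were not dim. That test does not cover smaller differences or dim probes. Python 3.11.15 with pandas 2.3.3, numpy 2.4.6 and matplotlib 3.10.9 made the counts and plots. The number of arrays limits the precision.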

Additional observations from a re-analysis of the deposited data

How the results depend on the processing

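GADD45A was the 1 member probe at least 2-fold lower, and 0 were at least 2-fold higher, in the reported setting and in each of the 12 alternatives. Several of these could not change the GADD45A call. It met the rule in each hybridization, so either alone, or their mean, had to meet it as well. The other detection filters and a scaling between the arrays left its ratio as it was. The ratio ran from -1.73 to -1.44 over the alternatives, and these ends are the values of the single hybridizations. All kept probes of GADD45B, CDKN1A, CDKN1B, CDKN1C and CDKN2D stayed below 0 in each of 11 alternatives, and GADD45G above 0, at 0.03 to 0.09. These probes had the same sign in both hybridizations, so taking either alone could not change it. The other detection filters and the scaling between arrays left their ratios as they were, and the deposited ratios nearly repeat those of the software. The dim CDKN1A probe of NM_078467 ran from -0.42 to -0.08, so its size depended on the processing. The signs of CDKN2A, CDKN2B and CDKN2C changed with the hybridization used, with ranges of -0.32 to 0.41 for the brighter CDKN2A probe, -0.38 to 0.31 for the kept CDKN2B probe and -0.02 to 0.31 for CDKN2C. The dimmer CDKN2A probe ran from -0.06 to 0.03. Of all kept probes, 506 were at least 2-fold lower and 88 higher in hybridization 1 alone, and 196 lower and 219 higher in hybridization 2 alone, against 142 and 44 in both. The software's log ratio gave 253 and 103, the deposited ratios 251 and 103, the mean of both hybridizations 250 and 93, and median centring 124 and 77. The 5 list genes at least 2-fold lower became 3 when the probes of a gene were averaged, without ATF4 and CEBPB, and numbered 5 with the software's log ratio. No list gene was at least 2-fold higher in either. The 3 that stayed after averaging, MAPK9, DDIT3 and DDIT4, had 1 probe each, so averaging could not change them. No paired analysis was possible because the hybridizations are a dye swap of 1 pair of RNAs. No spread between cultures or clones can be seen in them.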

Other observations

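The following list genes fell short of the 2-fold rule and were chosen after their values were seen. CDK7 and CCNH, the kinase and cyclin of the CDK-activating kinase, each had 1 probe. CDK7 gave -1.11 in hybridization 1 and -0.75 in hybridization 2, and CCNH gave -0.89 and -0.46, so both were lower in cl-sh3 in either dye. That also held for 28.4% of all named genes by their brightest kept probe.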
